A study of Canis lupus familiaris with 30 samples.

Results

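The cancer-associated stroma (CAS) of neutered bitches was compared with that of intact bitches bearing simple mammary carcinoma (mCA). The members were the 15 CAS libraries among the 30 of the series, and the other 15 are from normal stroma of the same dogs. Of the 15 CAS libraries, 6 come from dogs whose description states that they were neutered (dogs 109, 130, 131, 132, 136 and 137). The other 9 come from females without that mark (dogs 121, 123, 126, 127, 128, 134, 135, 138 and 139), which are called intact here although the labels do not use that word.

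All tumours had arisen spontaneously, were removed by curative surgery and are labelled as untreated. Stroma was cut from formalin-fixed, paraffin-embedded (FFPE) sections by laser-capture microdissection (LCM), with normal stroma taken from the same slides, and total RNA was sequenced after depletion of ribosomal RNA. Neutered dogs were between 6 and 13 years old (median 11) and intact dogs between 4 and 14 (median 10). The tumours of the neutered dogs were 4 tubular, 1 tubular-solid and 1 cribriform carcinoma. Those of the intact dogs were 4 tubular, 3 tubulo-papillary and 2 cystic-papillary carcinomas. FFPE samples of neutered dogs were 7 to 27 months old (median 13.5) and those of intact dogs 3 to 23 months (median 8). Neither the age of the dog (exact permutation test, two-sided, p = 0.687) nor the age of the sample (p = 0.222) differed beyond the spread between dogs. The age at neutering and the time between neutering and surgery are not given in the sources used here, and breeds differ between dogs.

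CAS is the connective tissue inside a carcinoma, made of fibroblasts, extracellular matrix, vessels and immune cells, and it differs in its gene expression from the stroma around healthy glands. Neutering removes the ovaries, which are the main source of oestrogen and progesterone in the bitch. Both hormones drive growth of the canine mammary gland, partly through signals that pass between epithelium and stroma, and early neutering is known to lower the risk of mammary tumours. The comparison asks whether the stroma inside an established carcinoma differs between dogs with and without ovaries.

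Genes are listed by Ensembl dog gene ID only, and 0 of the IDs could be matched to a symbol with the reference table used here. Lists of hormone receptors, hormone-responsive genes, matrix genes and cell type markers could therefore not be read, and the labelled tissue was not checked against its markers. Each library is a bulk sample of a dissected area, so that fewer cells of a type and less RNA per cell cannot be told apart.

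The CAS libraries of neutered dogs had a lower median total and fewer detected genes, differences that did not pass after adjustment for multiple tests. Total estimated counts per library were 1361951 to 3954464 in neutered dogs (median 2820394) and 2502611 to 5572761 in intact dogs (median 3757053). Dogs 130 and 136, both neutered, had the smallest totals of all 15, and the ranges of the groups overlapped. The mean log2 totals differed by -0.55 (exact permutation test over all ways to choose 6 of 15 dogs, two-sided, p = 0.0504). Benjamini-Hochberg adjustment was made over 10 tests. These include the tests of distance and spread between dogs given below and those of the ages of dog and sample. The exact permutation p of the totals became 0.181.

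Genes with at least 10 counts numbered 9987 ± 1043 (SD, n = 6) in neutered and 11410 ± 887 (n = 9) in intact dogs. The difference of -1427 genes had an exact permutation p of 0.0144 and an adjusted p of 0.144 over the same 10 tests. After all CAS libraries had been thinned to the smallest total, 1361951 counts, the difference was -714 genes (exact p = 0.0615). Without dogs 130 and 136 it was -819 genes (exact p = 0.101), a setting chosen after seeing the data. Within the tubular carcinomas, 4 dogs against 4, it was -1397 genes (exact p = 0.171).

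**Figure D1:**
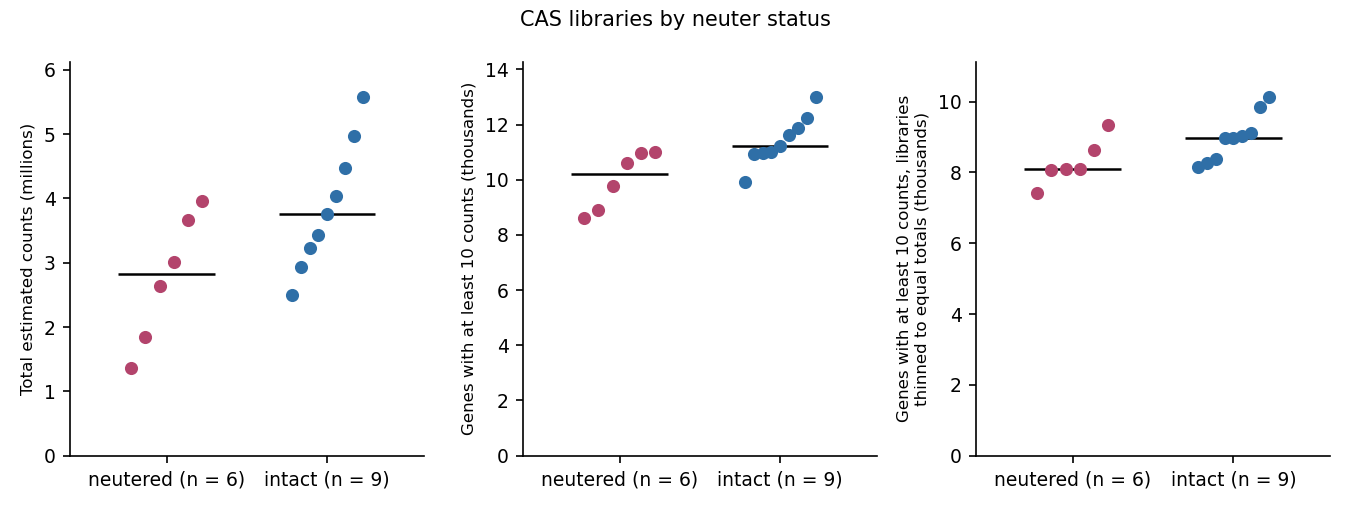
Total estimated counts, genes with at least 10 counts, and the same after thinning every library to 1361951 counts, for CAS of 6 neutered and 9 intact dogs. Each point is 1 dog and the line is the median. Both groups overlap in each panel, and the 2 lowest totals are from neutered dogs 130 and 136.

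At the level of single genes, no gene differed between neutered and intact dogs at a false discovery rate (FDR) below 0.05. Of 11634 genes tested with edgeR's quasi-likelihood test, 0 were called (0%), and 0 at an FDR below 0.1. The smallest unadjusted p was 0.00019, and the smallest adjusted p was 0.721. An unadjusted p below 0.05 was obtained for 558 genes (4.8%), of which 316 were higher and 242 lower in neutered dogs, where evenly spread p-values would give 5%. An unadjusted p below 0.001 was obtained for 11 genes, against 11.6 under an even spread. DESeq2 on the same genes called 0 (679 genes with an unadjusted p below 0.05), and limma-voom called 0 (509 genes). DESeq2's smallest adjusted p was 0.101.

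**Figure D2:**
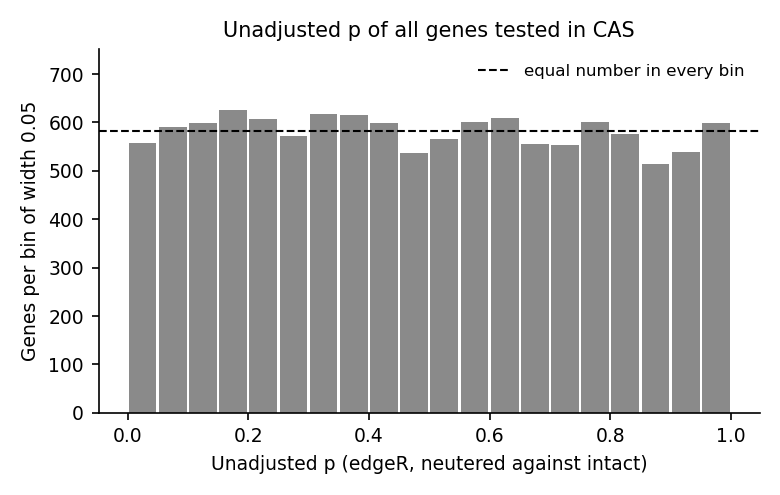
Number of genes per bin of unadjusted p (edgeR, 6 neutered against 9 intact dogs, 11634 genes), with a dashed line at the number that an even spread would give. The bin below 0.05 holds 558 genes and the bins range from 515 to 626 genes.

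Most differences were small, and their precision varied with abundance. The log2 fold change, neutered over intact, lay between -0.5 and 0.5 for 9034 genes (77.7%), and its median over all genes was -0.0023. It was above 1 for 283 genes and below -1 for 274. The standard error (SE) of the log2 fold change had a median of 0.359, and the biological coefficient of variation between dogs was 0.537.

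The 95% confidence interval stayed within a 2-fold difference in either direction for 5472 genes (47.0%) and within 4-fold for 10290 (88.4%). Genes were then ordered by mean CPM (estimated counts scaled to a common library total) and divided into 3 equal sets of 3878. In the most abundant set, from 30.7 CPM upwards, the interval stayed within 2-fold for 3026 genes. In the middle set it did so for 2103 genes and in the least abundant set, below 10.7 CPM, for 343. At the median SE, a single gene would have needed a 5.03-fold difference to pass the FDR threshold alone among 11634 genes. This was 2.92-fold in the most abundant and 12.6-fold in the least abundant set. Genes with a smaller SE than the median of their set would have needed less, and those with a larger SE more.

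Across all genes, no separation of the libraries by neuter status passed its test. In a principal component analysis of log2 CPM, PC1 held 15.7% of the variance and PC2 14.8%. Neuter status took up 1.14% of the variance of PC1 (exact permutation p = 0.703) and 12.8% of that of PC2 (exact p = 0.235). On PC2, dog 130 lay at 117.6 and the next neutered dog at 16.4. The mean distance between dogs of different status exceeded that between dogs of the same status by 6.16 log2 CPM units (136.7 against 130.6, exact p = 0.150, adjusted p = 0.299). Without dogs 130 and 136, a setting chosen after seeing the data, the excess was 2.66 (exact p = 0.674). Within tubular carcinomas it was 0.25 (exact p = 0.971).

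Neutered dogs lay farther from each other, at a mean distance of 151.6, than intact dogs, at 121.8. All 9 intact dogs had another intact dog as nearest neighbour, whereas 1 of the 6 neutered dogs had another neutered dog. Intact dogs 139 and 121 had the smallest mean distances to all other dogs (113.2 and 115) and were nearest neighbours of dogs of both groups. The count of nearest neighbours was not tested. The median over genes of the SD between dogs was 0.717 log2 CPM in neutered and 0.580 in intact dogs. The log2 ratio of these SDs was 0.307 and did not pass the test (exact permutation p = 0.0963, adjusted p = 0.241). It was 0.148 without dog 130 (exact p = 0.258), 0.356 without neutered dog 109 (exact p = 0.0440) and 0.44 without intact dog 134 (exact p = 0.0333).

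**Figure D3:**
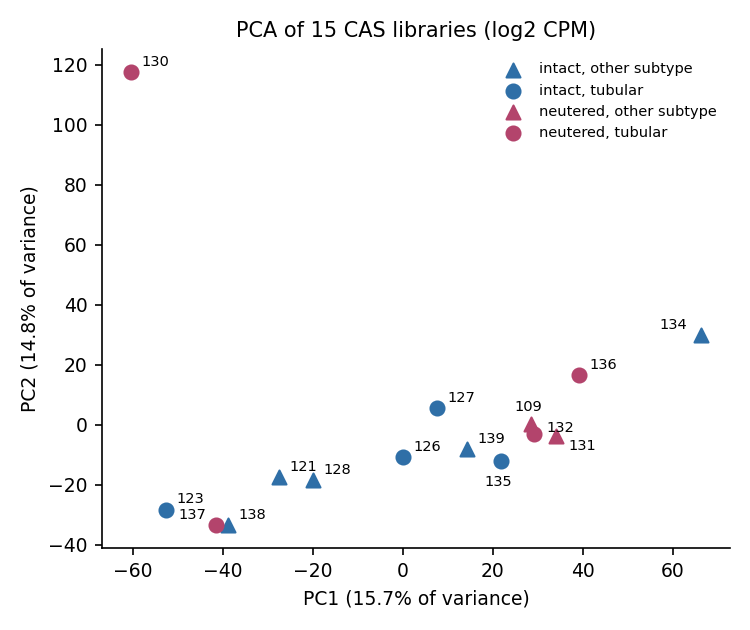
PC1 and PC2 scores of the 15 CAS libraries from log2 CPM of all genes tested, coloured by neuter status, with circles for tubular carcinomas and triangles for other subtypes and the dog number beside each point. Neutered and intact dogs are interspersed, and neutered dog 130 stands alone at the top with a PC2 score of 117.6.

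The genes with the smallest p in each direction are given with their values, although none passed the FDR threshold. ENSCAFG00000013267 was measured at 18.9, 21.0, 23.3, 30.1, 44.6 and 81.3 CPM in dogs 109, 132, 131, 130, 137 and 136, all neutered. In intact dogs it lay between 7.08 and 18.7 CPM, with a median of 14.5. The groups did not overlap, although the lowest neutered dog (109, at 18.9 CPM) and the highest intact dog (135, at 18.7 CPM) were close. The log2 fold change was 1.52 ± 0.32 (SE), with a 95% interval from 0.84 to 2.20 and an edgeR adjusted p of 0.721. Genes whose groups do not overlap numbered 5 of 11634 (0.043%), 1 higher and 4 lower in neutered dogs.

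ENSCAFG00000028825 had a median of 37.3 CPM in neutered dogs (24.5 to 98.4) and of 16.4 CPM in intact dogs (11.2 to 40.2). All 6 neutered dogs lay above the median of the intact dogs, and 2 of them (130 and 136) above the highest intact dog. Its log2 fold change was 1.43 ± 0.34 (SE), with an interval from 0.72 to 2.14 and an edgeR adjusted p of 0.721. Dogs 130 and 136 carry the highest values of this gene and also the smallest library totals, and without them, a setting chosen after seeing the data, its log2 fold change was 0.77 (edgeR adjusted p = 0.970).

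In the other direction, ENSCAFG00000016083 had a median of 22.1 CPM in neutered dogs (18.2 to 40.1) and of 47.1 CPM in intact dogs (33.4 to 62.0). Of the 6 neutered dogs, 5 lay below the lowest intact dog, and dog 137 lay within the range of the intact dogs. Its log2 fold change was -0.96 ± 0.23 (SE), with an interval from -1.43 to -0.48 and an edgeR adjusted p of 0.721.

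ENSCAFG00000018961 was at 2.53 to 7.01 CPM in neutered dogs (median 3.27) and at 7.16 to 17.2 CPM in intact dogs (median 10.8). The groups did not overlap, and its lowest neutered libraries held few reads, with 4 to 21 counts per neutered dog. The log2 fold change was -1.47 ± 0.35 (SE), with an interval from -2.20 to -0.74 and an edgeR adjusted p of 0.721.

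The most abundant gene of the CAS libraries, ENSCAFG00000007590, took 17.7% to 38.7% of the counts in neutered dogs (median 26.8%). In intact dogs it took 13.8% to 26.7% (median 22.2%). The means differed by 6.61 percentage points (exact permutation p = 0.0420, not adjusted). By share, neutered dogs 109 (27.2%), 131 (31.8%) and 132 (38.7%) exceeded the highest intact dog (138, at 26.7%), and dog 136 (24.3%) did not. In CPM, which are scaled by TMM, 4 of 6 neutered dogs exceeded the highest intact dog for this gene. In edgeR its log2 fold change was 0.71 ± 0.46 (SE), with an interval from -0.25 to 1.67 and an adjusted p of 0.969. The 10 most abundant genes of each library together held 53.0% ± 7.5 (SD, n = 6) and 42.7% ± 10.5 (n = 9) of the counts. This difference of 10.3 points had an exact p of 0.0544 and an adjusted p of 0.181.

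The normal stroma of the same dogs gives a measurement of these genes in libraries that were not used to choose them. It shares the dog, the slide and the age of the sample with CAS. Its totals were also divided by neuter status. Apart from 1 shallow library in each group (dog 136 with 32528 counts and dog 128 with 29284), totals were 617177 to 1365123 in neutered dogs (n = 5) and 2503672 to 3932370 in intact dogs (n = 8). These ranges do not overlap, so that depth and neuter status cannot be told apart in normal stroma.

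In those 13 normal stroma libraries, both genes that were higher in neutered CAS were higher again. ENSCAFG00000013267 was at 51.6 to 145.9 CPM in the 5 neutered dogs and at 13.9 to 42.9 CPM in the 8 intact dogs. Its mean log2(CPM + 1) differed by 1.87 (two-sided exact permutation test of 5 against 8 dogs, p = 0.00155, the smallest this design allows). ENSCAFG00000028825 was at 52.5 to 297.6 CPM against 16.9 to 45.4 CPM, a difference of 2.32 (exact p = 0.00155). Neither range overlapped. In edgeR over all genes and all 15 dogs in normal stroma, the log2 fold changes were 1.90 for ENSCAFG00000013267 (adjusted p = 0.00333) and 2.32 for ENSCAFG00000028825 (adjusted p = 0.000912).

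The genes that were lower in neutered CAS did not pass in normal stroma. ENSCAFG00000016083 differed by -0.87 on the log2(CPM + 1) scale (exact p = 0.499) and ENSCAFG00000018961 by -1.0 (exact p = 0.0528). Both were at 0 in the normal stroma of neutered dog 131. For ENSCAFG00000007590 the difference was -0.067 (exact p = 0.813). In edgeR the adjusted p of these 3 genes in normal stroma was 0.817 or higher in the 13 libraries and 0.896 or higher in all 15.

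**Figure D4:**
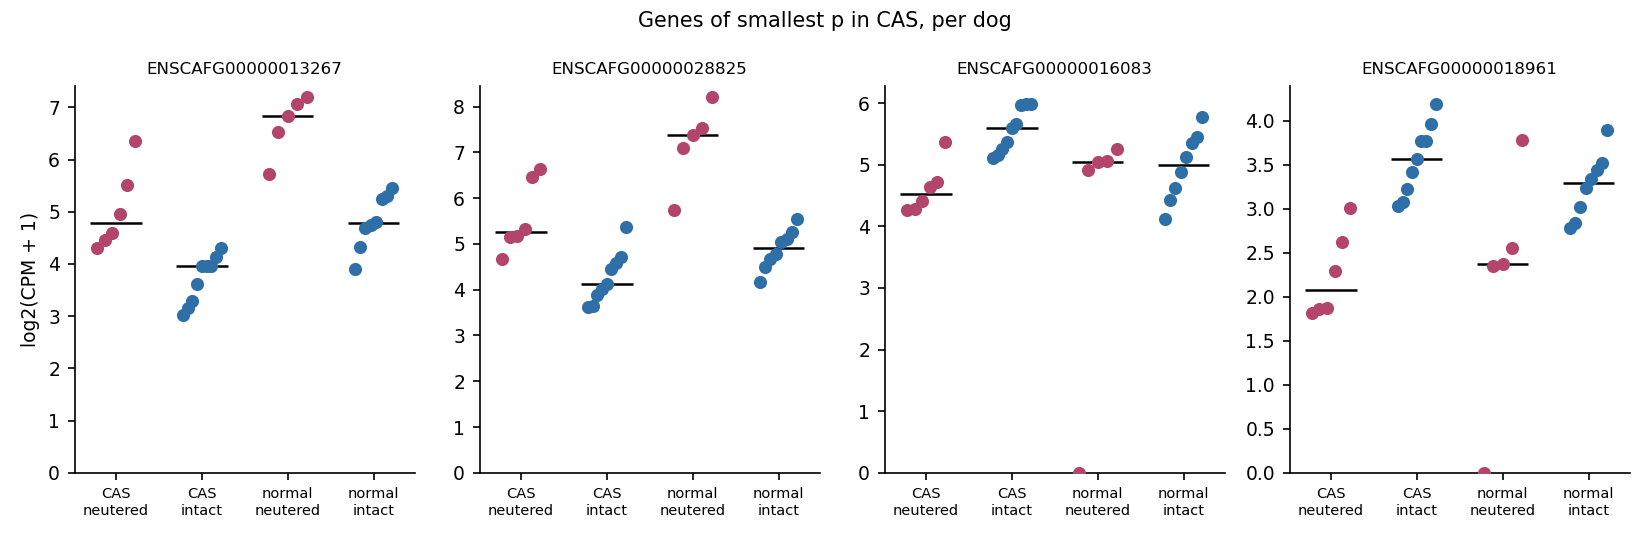
Log2(CPM + 1) of the 2 genes of smallest p in each direction, with 1 point per dog and the median as a line, for CAS (6 neutered, 9 intact dogs) and normal stroma (5 and 8 dogs, leaving out the libraries of dogs 136 and 128 with 32528 and 29284 counts). The 2 genes on the left are higher in neutered dogs in both tissues, and in normal stroma their groups do not overlap.

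The recurrence of both genes led to a count, chosen after seeing the data, over all genes called between neutered and intact dogs in normal stroma. In the 13 libraries, edgeR called 51 genes at an FDR below 0.05, of which 47 were higher and 4 lower in neutered dogs. In CAS, all of these 47 genes had a log2 fold change above 0, where 49.8% of all genes tested did. Their median in CAS was 1.27 (from 0.27 to 2.06), against -0.002 over all genes, and their median in normal stroma was 2.38. None was called in CAS, but 40 of the 47 had an unadjusted p below 0.05, where 4.8% of all genes did. They made up 8 of the 11 genes with an unadjusted p below 0.001 in CAS and 31 of the 283 with a log2 fold change above 1. Of the 4 genes lower in neutered normal stroma, 1 was lower in neutered CAS. With all 15 normal stroma libraries, 56 genes were called higher in neutered dogs, and 55 of them had a log2 fold change above 0 in CAS. The same dogs gave both tissues and genes can vary together across dogs, so these counts are not independent observations and were not tested.

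The mean level of the 47 genes in CAS ranged from 5.28 to 7.50 log2 CPM in neutered dogs (median 5.68) and from 4.11 to 5.55 in intact dogs (median 4.93). Dog 136 had the highest level at 7.50, followed by dogs 137 at 6.12 and 130 at 5.88, all neutered. Intact dogs 135 at 5.55 and 126 at 5.51 lay above neutered dogs 131, 132 and 109. In normal stroma the groups did not overlap, with 5.92 to 7.93 in neutered and 4.36 to 5.55 in intact dogs. The mean level of single genes among the 47 in CAS ranged from 6.38 to 2079 CPM, with a median of 40.6 CPM against 18.4 CPM over all genes.

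The level of these genes in CAS was set beside library total, and their association was not tested. Dogs 136, 137 and 130, with the highest levels, had the 2nd, 4th and 1st smallest CAS totals. Intact dog 121, with the lowest level, had the largest. Other dogs did not follow this order. Intact dog 128 had the 5th smallest total and the 13th highest level (4.53). Intact dog 135 had the 10th smallest total and the 4th highest level (5.55). With the log2 library total as covariate, 44 of the 47 genes had a log2 fold change above 0, 12 had an unadjusted p below 0.05 and the median was 0.68. Without dogs 130 and 136, all 47 lay above 0, 23 had an unadjusted p below 0.05 and the median was 0.66. With the age of the sample as covariate, all 47 lay above 0, 27 had an unadjusted p below 0.05 and the median was 0.91. Dog 136 also had the oldest sample, at 27 months. Within tubular carcinomas the median was 1.36, with 46 of the 46 genes tested above 0. After thinning of all CAS libraries to the same total it was 1.25, with 44 of the 44 genes tested above 0. Thinning leaves the expected share of each gene in its library unchanged. A median close to that of the main fit was therefore fixed beforehand, and the part of library total was not tested by it.

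**Figure D5:**
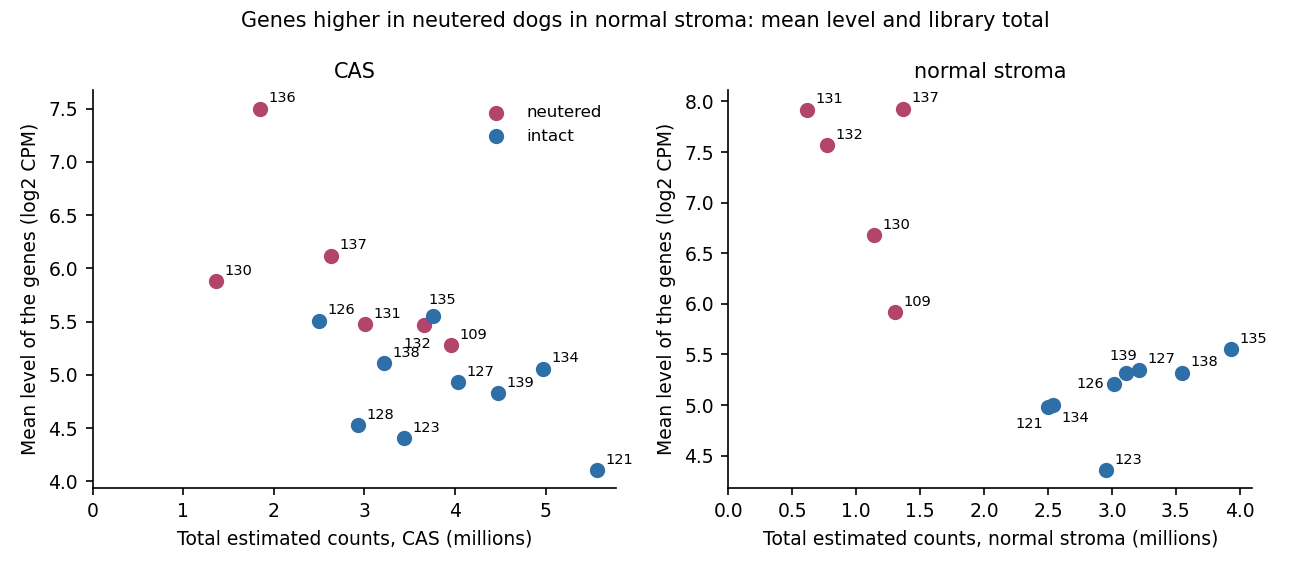
Mean log2 CPM of the 47 genes called higher in neutered dogs in normal stroma, against the total estimated counts of the same library, for CAS (left, 15 dogs) and normal stroma (right, 13 dogs). Each point is 1 dog. In normal stroma, where the genes were chosen, neutered dogs have lower totals and higher levels without overlap, and in CAS dog 136 is highest at 7.50 and dog 121, with the largest total, lowest at 4.11.

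Genes that distinguish CAS from normal stroma were also examined by neuter status. A fit of all 30 libraries that included a term for each dog called these genes, with more than a 2-fold difference and an FDR under 0.01. They use the same CAS libraries, and neuter status was not a term in their selection. Of the 302 genes higher in CAS, 0 were called between neutered and intact dogs and 7 (2.32%) had an unadjusted p below 0.05, against 4.8% of all genes tested. Of these 302, 49.0% had a log2 fold change above 0, against 49.8% of all genes, with a median of -0.01. Their mean level in CAS was 5.37 to 5.95 log2 CPM in neutered and 5.46 to 6.21 in intact dogs, and these ranges overlap.

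Of the 278 genes lower in CAS, 255 were tested between neutered and intact dogs and 0 were called. An unadjusted p below 0.05 was obtained for 22 (8.63%, against 4.8% of all genes), of which 20 were higher in neutered dogs. A log2 fold change above 0 was found for 188 (73.7%, against 49.8% of all genes), with a median of 0.24. The set contains 9 of the 47 genes described above, and without these the median was 0.21, 72.8% of 246 genes lay above 0 and 13 (5.28%) had an unadjusted p below 0.05. Its mean level was 3.86 to 4.65 log2 CPM in neutered dogs (median 4.13) and 3.63 to 4.35 in intact dogs (median 3.89), with overlapping ranges. Genes of a set can vary together across dogs, so the counts in these sets are not independent observations and were not tested. The sets were not examined with the library total as covariate.

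Whether the difference by neuter status was itself different in CAS and in normal stroma was tested as an interaction over all 30 libraries. Of 12349 genes, 1 was called (0.0081%), with 836 (6.77%) at an unadjusted p below 0.05, and with the dog as a replicate block edgeR called 0 (smallest adjusted p = 0.259, 672 genes at an unadjusted p below 0.05). DESeq2 with the same block called 2 genes, among them the gene called by edgeR without it (DESeq2 adjusted p = 0.0477). This gene, ENSCAFG00000010388, was named after its values were seen. In CAS it was at 3.96 to 19.4 CPM in neutered dogs (median 8.59) and at 6.30 to 15.5 in intact dogs (median 8.66), with a log2 fold change of 0.16 (edgeR adjusted p = 0.982). In normal stroma it was at 0 to 1.62 CPM in neutered dogs, with no more than 1 count in any of these libraries, and at 0 to 27.7 in intact dogs (median 8.79). The fitted interaction depends on how the libraries at 0 are treated, and is no measure of its size.

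The interaction was not called for any of the genes named before it. For ENSCAFG00000013267 it was -0.34 (edgeR adjusted p = 0.956), for ENSCAFG00000028825 -0.85 (adjusted p = 0.840), for ENSCAFG00000016083 -0.73 (adjusted p = 0.884) and for ENSCAFG00000018961 -0.71 (adjusted p = 0.911). These differences have SEs of 0.48 to 0.65, so that a difference between the tissues of the size measured could not be told from 0. Of the genes with an unadjusted p below 0.05 in CAS that were also tested in the 13 normal stroma libraries, 312 of 501 (62.3%) had the same direction there. Among all genes tested in both, this was 5420 of 10182 (53.2%). The 501 genes include 40 of the 47 genes described above, which were chosen in normal stroma and all share the direction. The same dogs gave both tissues, and depth cannot be told apart from neuter status in normal stroma. These counts were not tested.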

How the data were processed

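CAS and normal stroma of 15 dogs had been sequenced as 1 library each. The authors quantified reads with kallisto 0.44.0, correcting for sequence bias, on the CanFam3.1 transcripts of Ensembl, and summed them per gene with tximport. They deposited the resulting estimated counts without normalisation, for 18582 genes and 30 libraries. All 30 columns were used, 0 were left unmapped and 0 values have a fraction. Estimated counts divide reads shared by near-identical genes between them, so the change of any single gene with close copies is uncertain.

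In R 4.3.3, counts were rounded to whole numbers. Genes were filtered with filterByExpr at its defaults (11634 of 17971 with a count in CAS) and scaled by TMM. The 6 neutered and 9 intact dogs were compared with edgeR 4.0.16's quasi-likelihood test on the CAS libraries only, without covariates, with Benjamini-Hochberg adjustment over all genes tested and an FDR below 0.05. SEs derive from the fold change and the F statistic. Log2 CPM used a prior count of 2. Single values per library were tested by two-sided exact permutation over all splits of the dogs, whose smallest p is 0.0004. Dogs are the replicates. Totals per library limit the precision, and no counting interval was computed.

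Named genes were at most 2 IDs per direction, taken by smallest p where fewer than 2 were called, plus the most abundant gene. Lists of gene symbols could not be used, as 0 IDs matched the reference table. The groups, lists and tests were chosen with earlier results of these data known.

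CAS and normal stroma are paired because each dog gave both. The mean correlation of their deviations from the group means was 0.112 within a dog, lying between -0.002 and 0.234 and exceeding 0.1 in 7 dogs, and -0.0075 across dogs. The comparison within CAS has no pairs, and the interaction was also fitted with the dog as a replicate block.

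Alternatives were DESeq2 1.42.0, limma-voom (limma 3.58.1), surrogate variables from svaseq (sva 3.50.0), covariates for age of dog, age of sample and subtype, tubular carcinomas only, all 30 libraries in 1 fit, other size factors, filters and thresholds, and leaving out each dog. Those chosen after seeing the data were leaving out dogs 130 and 136, thinning before the test across genes and within tubular carcinomas (thinning for genes detected was planned), the library total as covariate, the most abundant genes without the first, and the sets of genes called in normal stroma. The sets that distinguish CAS from normal stroma and the count of genes sharing a direction in both tissues were not planned either. The same holds for the exact tests of named genes in normal stroma. The comparison of neutered with intact dogs by edgeR, DESeq2 and limma-voom, without covariates, was tested on simulated counts. The exact permutation test of a difference in means was tested on made-up values. The other steps, among them the interaction, the surrogate variables and the thinning, were not tested in this way.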

Additional observations from a re-analysis of the deposited data

Results flagged for a closer look

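In groups of 6 or 9 dogs, 3 of 24 sets of values had a sample far from the others (Dixon's criterion at 95%). Chance flags about 1 in 20 such groups where values are normally distributed, which was not checked here. Neutered dog 130 stood apart on PC2 of the CAS libraries, with a score of 117.6 against 16.4 for the next neutered dog, and it had the smallest total of the 15 CAS libraries. Neutered dog 137 had 40.1 CPM of ENSCAFG00000016083 in CAS against 25.4 CPM in the next neutered dog. Intact dog 126 had 40.2 CPM of ENSCAFG00000028825 in CAS against 25.2 CPM in the next intact dog. The interaction of tissue and neuter status passed the test for ENSCAFG00000010388 (edgeR adjusted p = 0.04995, without a replicate block). Its fitted value, 4.80 on the log2 scale, depends on how the libraries at 0 are treated and is no measure of its size. With the dog as a block, edgeR called no gene (smallest adjusted p = 0.259), whereas DESeq2 called this gene (adjusted p = 0.0477). In normal stroma, neutered dogs had at most 1 count of this gene per library.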

How the results depend on the processing

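Under 30 of the 32 alternatives, leaving out each dog included, 0 genes were called in CAS. With 5 surrogate variables 1 gene was called, lower in neutered dogs (ENSCAFG00000032078, edgeR adjusted p = 0.00927 against 0.969 without them). Its log2 fold change in that fit was -51.2, against -1.41 without them, so the fitted value is no measure of its size. Its median in CAS was 0 CPM in neutered and 3.78 CPM in intact dogs. In tubular carcinomas only, 4 dogs against 4, 1 gene was called, higher in neutered dogs (ENSCAFG00000032318, adjusted p = 0.00760). Both were named after their values were seen, and the cause was not tested. Genes with an unadjusted p below 0.05 numbered 1340 of 17971 without a filter, 370 of 6488 with a filter of 10 counts in every library and 871 without neutered dog 137. The interaction gave 0 genes with the dog as a replicate block, 2 by DESeq2 with that block, 0 with the block and without the 2 shallow normal stroma libraries, and 2 at an FDR below 0.1. Of the paired fits, edgeR's lost the call of ENSCAFG00000010388, whereas DESeq2's kept it and added ENSCAFG00000008873, named after its values were seen. The unadjusted exact p of the difference in genes detected was above 0.05 with 1 CPM as the limit (-591) and after thinning (-714). It was also above 0.05 in tubular carcinomas (-1397), without dogs 130 and 136 (-819) and after thinning in tubular carcinomas (-347). The share difference of the most abundant gene alone, 6.61 points, had an unadjusted exact p of 0.0420, and that of the 10 most abundant 0.0544. Leaving out each dog in turn, the log2 ratio of the spreads ranged from 0.148 to 0.44. Its unadjusted exact p was below 0.05 only without neutered dog 109 or intact dog 134. The named genes kept their direction in all alternatives in which they were tested, with log2 fold changes of 1.08 to 1.72 for ENSCAFG00000013267, 0.68 to 1.62 for ENSCAFG00000028825, -1.16 to -0.65 for ENSCAFG00000016083, -1.82 to -1.33 for ENSCAFG00000018961 and 0.39 to 0.86 for ENSCAFG00000007590, and adjusted p of 0.101 or higher. Apart from ENSCAFG00000007590, the named genes had been chosen by smallest p in the same CAS libraries. A kept direction therefore follows largely from that choice. The median SE was largest for genes below 10.7 CPM (0.562, against 0.238 from 30.7 CPM upwards). The parts of depth and of spread between dogs in this SE were not tested.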

Other observations

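ENSCAFG00000032318, called in tubular carcinomas only, was at high level in some dogs and near 0 in the others. It exceeded 10 CPM in CAS of 4 of 6 neutered and 2 of 9 intact dogs and was at 0.506 CPM or less in the rest. All 4 neutered dogs with a tubular carcinoma had 29.4 to 84.5 CPM, and all 4 intact dogs with a tubular carcinoma had 0. The highest value of all, 108 CPM, was in an intact dog with another subtype. Over all 15 dogs its log2 fold change was 1.07 (edgeR adjusted p = 0.971). ENSCAFG00000032078, called with surrogate variables only, exceeded 10 CPM in 1 of 6 neutered and 2 of 9 intact dogs.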
